A study of Mus musculus with 4 samples.

Results

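The transcription factors that set the fate of NKT cell subsets were followed through RNA-seq of NKT cells from the small intestinal lamina propria (SI-LP). They are 9 genes of the 25239 in the count table, chosen by name but with earlier results of these data known: *Zbtb16*, *Tbx21*, *Gata3*, *Eomes*, *Zbtb7b*, *Runx1*, *Runx3*, *Cbfb* and *Bcl11b*. NKT cells are T cells whose receptor recognises lipids presented by CD1d. They were sorted from WT C57BL/6Jax mice as live cells that bound TCRβ antibody and CD1d tetramer loaded with the lipid PBS-57 and lacked B220, CD11b, CD11c and CD8, after the mice, young adults of both sexes in the study, had received a nanobody against ARTC2. All 4 libraries belong to this one condition. Their titles say First (replicates 3 and 4) or Second (replicates 1 and 2), which is read here as 2 experiments, though the labels do not use that word. The library names, with their lane code, also differ between the 2 sets, so experiment and lane cannot be told apart. The comparisons possible are between genes within a library and between libraries, and every statement about spread is about these 4 samples. The labels do not say whether a library holds 1 mouse or several.

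NKT cells leave the thymus with an effector program already in place. PLZF, the product of *Zbtb16*, starts that program, and the subsets then part: NKT1 cells are marked by T-bet (*Tbx21*) and make IFN-γ, NKT2 cells by high PLZF and GATA3 and make IL-4, and NKT17 cells make IL-17. ThPOK (*Zbtb7b*) and RUNX3 oppose each other in the choice between the CD4 and the CD8 lineage, RUNX factors bind DNA as partners of CBFβ, and BCL11B holds T cells to their lineage.

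Total counts were between 3882803 and 8732858 per library, so that 3 counts, taken as the smallest level a library can show, are worth 0.287 to 0.753 CPM on the scale used below (a limit from counting alone, as PCR copies of a molecule are counted separately). The 7 T cell markers took 0.118% to 0.286% of the counts and all 7 had counts. Epithelial markers (21 genes) took 0.0942% of the counts in replicate 1 and 0.0151% in replicate 3, but 1.14% in replicate 2 and 2.94% in replicate 4. Plasma cell markers (6 genes) took 0.655% and 0.839% in the second experiment (replicates 1 and 2) against 0.0114% and 0.0387% in the first. Of 6 NK cell and ILC markers 4 were at 0 in every library, as were 4 of 6 mast cell markers and 35.7% of all genes in the table. The others had counts: *Areg* 152, 443, 2 and 36 in replicates 1 to 4, and *Il1rl1* 6, 118, 13 and 2. Among the mast cell markers, *Kit* had 6, 657, 9 and 109 and *Cpa3* 4, 0, 0 and 5. *Cd8a* had 0, 12, 1 and 1 counts in replicates 1 to 4. Because replicates 2 and 4 stand apart in their epithelial markers, the ratios between factors are also given for replicates 1 and 3 alone.

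Below, CPM (a gene's counts relative to the library total after edgeR's TMM scaling) compares 1 gene between libraries, and TPM (the share of a library's counts after division by gene length) compares genes within a library. RNA from 8 of the 9 genes was found in every library, with 176 counts or more, whereas *Eomes* had 0 counts in all 4. These 8 passed the filter for testing (at least 10 counts in at least 2 libraries), as did 46.3% of the table. Over the whole table, 35.9% of genes had more than 3 counts in all 4 libraries and 35.7% had 0 in all 4. By mean log2 TPM the order was *Runx3*, *Cbfb*, *Tbx21*, *Gata3*, *Bcl11b*, *Zbtb16*, *Runx1*, *Zbtb7b*.

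**Figure D1:**
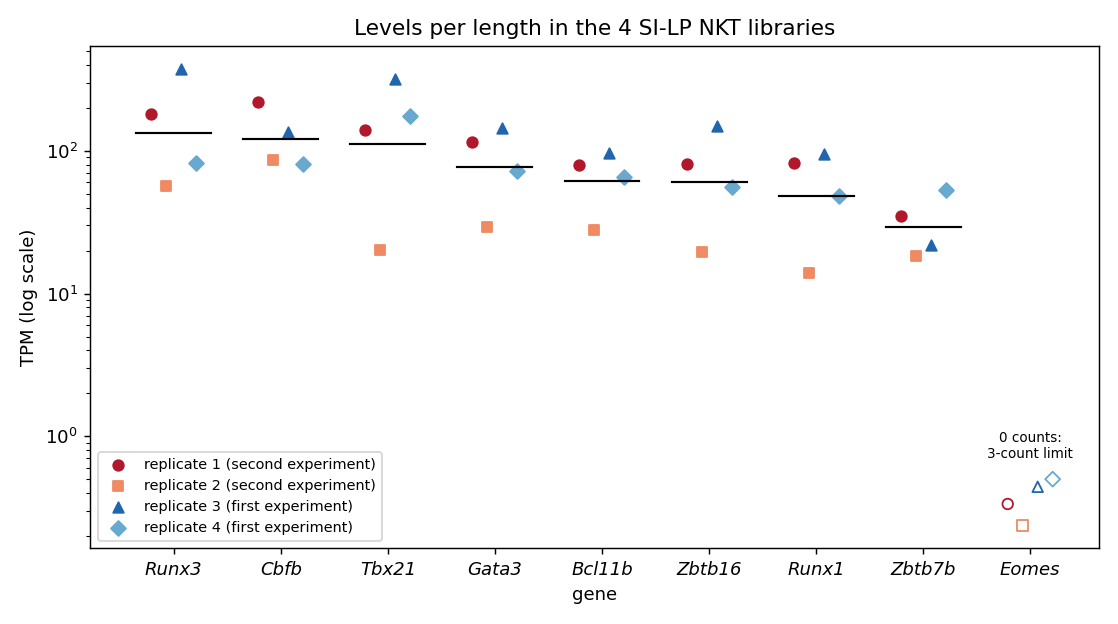
TPM on a log axis for each lineage factor in the 4 SI-LP NKT libraries, 1 point per library, with bars at the mean of log2 TPM. Open symbols for *Eomes* mark the level of 3 counts in libraries that had 0, between 0.238 and 0.502 TPM, and the replicate 2 points of *Tbx21* (20.3) and *Runx1* (13.9) lie lowest in their columns.

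*Zbtb16* (chr9:48651797-48836225, GRCm38, minus strand, 8 merged exons), the gene of PLZF, was read at 210, 49.6, 470 and 175 CPM in replicates 1, 2, 3 and 4. Replicate 3 lay highest and replicate 2 lowest, 9.47-fold apart, for a mean of 226 ± 176 CPM (SD, n = 4). Per length it reached 76.2 ± 54.4 TPM (SD, n = 4), and its percentile among the 11689 genes with enough counts to be tested ran from 43.9 in replicate 2 to 92.2 in replicate 3. The factor that every NKT cell passes through in the thymus was thus present in each library.

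*Tbx21* (chr11:97098007-97115331, minus strand), which encodes T-bet and marks NKT1 cells, was read at 118, 16.9, 328 and 181 CPM in replicates 1 to 4. Its range, 19.4-fold from replicate 2 to replicate 3, was the widest of the 8 detected factors, and its mean was 163 ± 122 TPM (SD, n = 4). Its position among the 8 by TPM was 1 in replicate 4, 2 in replicate 3, 3 in replicate 1 and 5 in replicate 2.

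*Eomes* (chr9:118478189-118486132, plus strand, 6 exons, 3715 bases of exon) encodes the other T-box factor of cytotoxic lymphocytes. With 0 counts in each library, its level was set against that of 3 counts, or 0.336, 0.238, 0.443 and 0.502 TPM in replicates 1 to 4. This is the limit from counting alone given above, not a strict upper bound. *Tbx21* per length was 415 times that limit in replicate 1, 85.4 times in replicate 2, 712 times in replicate 3 and 351 times in replicate 4. Expression of *Eomes* was not detectable at this depth, while its paralog was read in every library.

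*Gata3* (chr2:9857078-9878600, minus strand), needed for T cell development and for IL-4-producing cells, was read at 123, 30.5, 190 and 94.1 CPM. It followed the same order of libraries as *Zbtb16*, highest in replicate 3 and lowest in replicate 2, with a mean of 90.3 ± 50.5 TPM (SD, n = 4). Its position among the 8 was 3 in replicate 2 and 4 in the others.

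*Zbtb7b* (chr3:89377644-89393378, minus strand), the gene of ThPOK, was read at 55.3, 28.4, 42.4 and 103 CPM. Unlike the others it was highest in replicate 4, and with 31.9 ± 15.7 TPM (SD, n = 4) it had the lowest mean of the detected factors. Of its 4793 bases of exon, 116 (2.42%) overlap *Gm15417* on the opposite strand, where reads counted without strand cannot be told apart. *Gm15417* itself had 0, 16, 2 and 2 counts.

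*Runx3* (chr4:135120645-135177990, plus strand), a RUNX factor of CD8 and cytotoxic cells, was read at 249, 75.9, 630 and 137 CPM. Replicate 3 was above the other libraries and replicate 2 below them, with a mean of 174 ± 145 TPM (SD, n = 4). This mean, the highest of the 9 genes, rests on replicate 3, without which it was 107 TPM, below *Cbfb* (129) and *Tbx21* (112), and the median over libraries was 132 TPM against 158 for *Tbx21*. *Runx1* (chr16:92601466-92826074, minus strand), which serves blood and T cell development more widely, was read at 201, 33.2, 286 and 145 CPM and averaged 59.8 ± 36.4 TPM (SD, n = 4). *Cbfb* (chr8:105170674-105217988, plus strand), the gene of their common partner, was read at 213, 81.3, 161 and 95.6 CPM. It was the steadiest of the 8, with 2.62-fold between its highest and lowest libraries, and averaged 131 ± 64.2 TPM (SD, n = 4). *Cbfb* was also the only one with replicate 1, not 3 or 4, on top.

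*Bcl11b* (chr12:107910403-108003414, minus strand) was read at 209, 71.9, 311 and 211 CPM. Replicate 2 stood below the other 3 libraries, and the mean was 67.5 ± 29.2 TPM (SD, n = 4). In bulk RNA, fewer cells of a subset and less RNA per cell cannot be told apart.

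The RUNX genes share a stretch of sequence at the distal of their 2 promoters, printed here because no other pair among these factors has one of that length. RefSeq windows from 250 bases before to 50 bases after the transcription start (GRCm38.p6) were found for 8 of the 9 genes, 11 windows in all; *Zbtb16* had none in the table. The core ACCACA of the RUNX motif, on either strand, occurs in 3 of the 11, the distal windows of *Runx1* and *Runx3* and the proximal window of *Zbtb7b*, and in 16.8% of 32851 windows of all genes. In both *Runx* windows it occurs as a pair inside the longest stretch that any 2 windows of these genes share, 18 bases, whereas the next longest shared stretch has 12. Across all windows 4 contain the 18 bases: *Runx1*, *Runx3*, the paralog *Runx2*, and *Gm16225*, whose window overlaps that of *Runx3* on the other strand. The 30 bases around it follow, at chr16:92826025-92826054 (minus strand), chr4:135120503-135120532 (plus strand) and chr17:44814583-44814612 (minus strand), written 5′ to 3′ with each ACCACA in capitals.
Runx1 distal: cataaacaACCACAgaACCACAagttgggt
Runx3 distal: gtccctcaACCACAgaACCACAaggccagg
Runx2: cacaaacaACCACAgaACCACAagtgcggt
Both copies of the motif lie 2 bases apart in all 3 genes. In *Runx3* they begin 134 and 126 bases before the start, and in *Runx1* 29 and 37 bases after it. The T-box core GGTGTGA and the GATA core AGATAA occur in 0 of the 11 windows, on either strand and with no overlap with ACCACA, against 3.98% and 11.2% of all windows, which says only that these letters are not in these windows. The distal and proximal windows differ in base composition: the ratio of observed to expected CpG was 0.137 for the distal and 1.01 for the proximal window of *Runx1*, and 0.264 and 1.01 for those of *Runx3*, against a median of 0.384 over all windows. Counts were made per gene, so which promoter the RNA came from was not measured. *Runx2* RNA, at 104, 53.7, 43.5 and 38.9 CPM and 19.9 ± 11.6 TPM (SD, n = 4), was read in every library too.

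Ratios of 2 genes within a library do not depend on how libraries are scaled to each other, so they set the factors of one subset against those of another. T-bet RNA was above PLZF RNA per length in each library, though below it on average in counts not divided by length. *Runx3* was above both *Runx1* and *Zbtb7b* per length in each, though below *Runx1* in replicate 4 in counts not divided by length. With 4 libraries the exact sign-flip permutation test cannot give a p below 0.13, so no ratio could pass a threshold of 0.05, and sign and size in each library are what the data give.

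**Figure D2:**
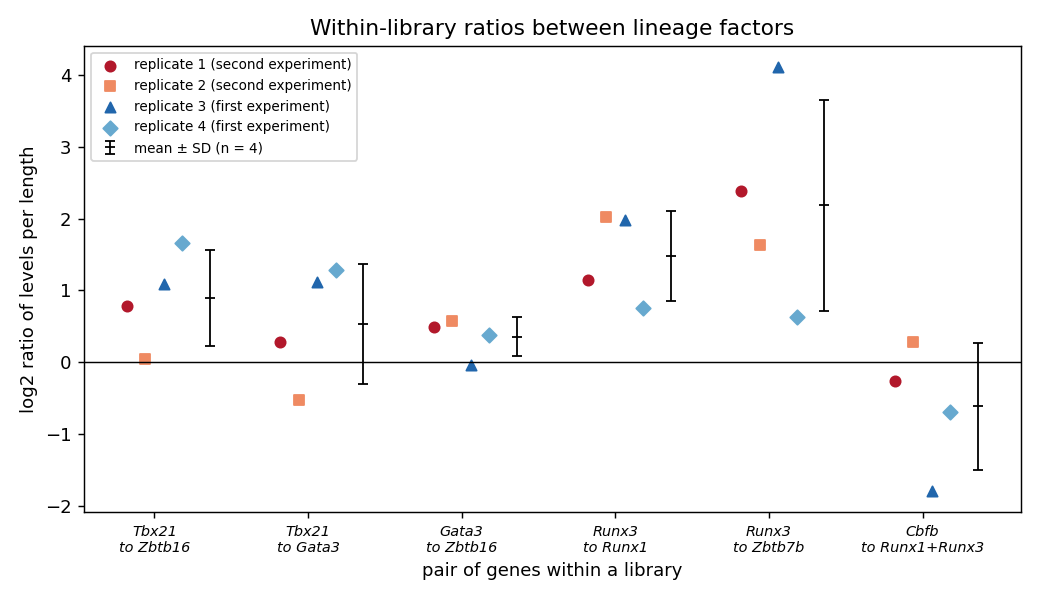
Log2 ratio of levels per length between pairs of lineage factors, 1 point per library, with the mean and SD (n = 4) to the right of each set. *Runx3* to *Zbtb7b* runs from 0.63 in replicate 4 to 4.10 in replicate 3, and the points of *Runx3* to *Runx1* lie between 0.76 and 2.03.

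The log2 ratio of *Tbx21* to *Zbtb16* was 0.78, 0.05, 1.09 and 1.66 in replicates 1, 2, 3 and 4. All were above 0, with a mean of 0.90 ± 0.67 (SD, n = 4), 1.86-fold (exact two-sided sign-flip permutation test, p = 0.13, 0.25 after Benjamini-Hochberg adjustment over 6 ratios). With counts not divided by length the mean was -0.71, since the annotated exons of *Zbtb16* cover more bases (7782 against 2552). The length of the RNA in these cells was not measured, and the sign of this ratio rests on the annotation. Over replicates 1 and 3 alone the mean per length was 0.94.

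*Tbx21* was above *Gata3* in 3 of 4 libraries, at 0.28, -0.52, 1.12 and 1.28. The mean of 0.54 ± 0.83 (SD, n = 4) was smaller than its spread (p = 0.375, adjusted 0.375, exact sign-flip permutation test). In replicate 2, where *Tbx21* was lowest, *Gata3* was the higher of the pair. Over replicates 1 and 3 alone the mean was 0.70.

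*Gata3* and *Zbtb16*, the pair that marks NKT2 cells, stayed close: their log2 ratio was 0.50, 0.58, -0.03 and 0.38. The mean of 0.36 ± 0.27 (SD, n = 4) was above 0 in 3 of 4 libraries (p = 0.25, adjusted 0.375, exact sign-flip permutation test) and was -0.92 with counts not divided by length. Over replicates 1 and 3 alone it was 0.23 per length.

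*Runx3* exceeded *Runx1* by 1.15, 2.03, 1.98 and 0.76 log2 units, on average 1.48 ± 0.63 (SD, n = 4) or 2.78-fold (p = 0.13, adjusted 0.25, exact sign-flip permutation test), and by 1.56 in replicates 1 and 3 alone. With counts not divided by length the mean was 0.64, as the annotated exons of *Runx1* cover more bases (7378 against 4134). In replicate 4 *Runx3* then lay below *Runx1* (546 against 576 counts). Over *Zbtb7b*, *Runx3* was higher per length by 2.38, 1.63, 4.10 and 0.63, on average 2.19 ± 1.47 (SD, n = 4) or 4.55-fold (p = 0.13, adjusted 0.25, exact sign-flip permutation test), and by 3.24 in replicates 1 and 3 alone. That mean was 1.97 with counts not divided by length. The lowest of these ratios, in replicate 4, is where *Zbtb7b* had its highest and *Runx3* its second lowest CPM. *Cbfb* against the sum of *Runx1* and *Runx3* gave -0.26, 0.29, -1.79 and -0.68, a mean of -0.61 ± 0.88 (SD, n = 4), with the partner below the sum in 3 of 4 libraries (p = 0.375, adjusted 0.375, exact sign-flip permutation test) and a mean of -1.02 in replicates 1 and 3 alone.

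Neighbours in the order of levels mostly did not separate. Of 7 neighbouring pairs only *Gata3* over *Bcl11b* kept one order in 4 of 4 libraries, by 0.33 ± 0.27 log2 units (SD, n = 4; exact sign-flip permutation test, p = 0.13, adjusted 0.875), and the other 6 changed order between libraries. Of all 28 pairs of the 8 factors, 16 (57.1%) kept their order in all 4 libraries, near the 56.6% of all pairs of genes tested.

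The genes that follow each subset's factor were then ranked beside the factors, in lists chosen with earlier results of these data known. NKT1 genes ranked high: all 12 were tested, and their median percentile by TPM was 96.1, with 97.1, 94.4, 98.0 and 93.6 in replicates 1 to 4. *Il2rb*, the IL-15 receptor chain that NKT1 cells depend on, reached 1649 ± 1061 TPM and *Nkg7*, a cytotoxic granule protein gene, 1209 ± 605 TPM, while *Klrk1*, the gene of the NKG2D receptor, was lowest at 18.3 ± 6.07 TPM (SD, n = 4 each). By CPM, with no division by length, the NKT1 median was 85.1. The 8 NKT2 genes, of which 7 were tested, had a median percentile of 48.8, with 63.5, 26.4, 81.2 and 38.0 in replicates 1 to 4. *Plac8* led them with 573 ± 195 TPM, then *Il4* with 104 ± 64.3 TPM, and *Ccr7*, a lymph node homing receptor, was lowest at 6.67 ± 7.71 TPM (SD, n = 4 each) with counts in 2 of 4 libraries. NKT17 genes (7 of 11 tested) had a median percentile of 59.0, with 25.6, 74.0, 33.4 and 64.3 in replicates 1 to 4. *Il17a* and *Il17f*, the cytokine genes that define the subset, had 0 counts in every library. *Tmem176b* at 103 ± 56.1 TPM and *Serpinb1a* at 97.6 ± 133 TPM led that list and *Ccr6*, with 1 count in all, was lowest (SD, n = 4 each). *Serpinb1a* had 20, 1900, 66 and 232 counts, highest in the libraries with more epithelial markers. The median of 59.0 is the percentile of *Sdc1*, which is also a plasma cell marker, with 672, 636, 7 and 159 counts. Genes that were not tested have no percentile and are left out of the list medians. All genes tested had a median percentile of 48.1, and the 8 detected lineage factors 77.4, *Eomes* having no rank.

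**Figure D3:**
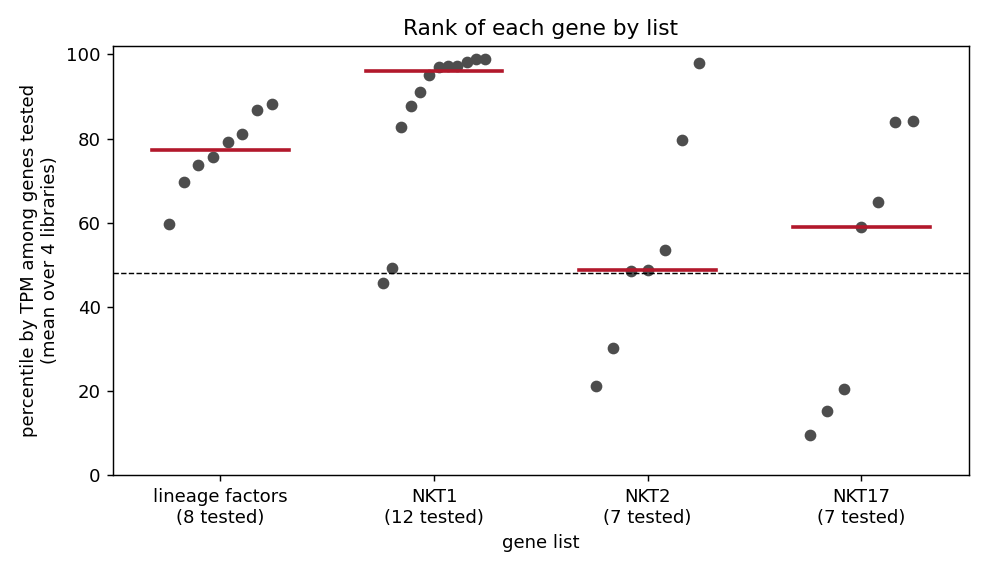
Percentile of each tested gene by TPM among 11689 genes (mean over 4 libraries) for the lineage factors and the genes of each NKT subset, with the list median as a bar and the median of all genes tested (48.1) as a dashed line. Most NKT1 points lie above 80, with *Klrd1* (49.2) and *Klrk1* (45.6) below them, whereas NKT2 and NKT17 points spread from 9.55 to 97.9.

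Genes linked to PLZF function were all detected. All 6 were tested, with a median percentile of 78.2. *Cd40lg*, a costimulatory ligand, averaged 613 ± 278 TPM, *Icos* 493 ± 289 TPM, and *Il18r1* was lowest at 31.8 ± 23.2 TPM (SD, n = 4 each). Among genes that ThPOK and RUNX factors control, *Cd4* had 787, 104, 599 and 217 CPM, while *Cd8b1* had 1 count in replicate 2 and 0 elsewhere. The sort gate had removed CD8+ cells. *Itgae*, the αE integrin gene of intraepithelial cells, had 11, 40, 0 and 6 counts.

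Other regulators of NKT cells included 17 genes with a row, all of them tested, at a median percentile of 75.3. *Ets1* averaged 651 ± 312 TPM and *Ikzf3* 390 ± 292 TPM, both above every one of the 9 factors in their mean, and *Hivep3* was lowest at 2.71 ± 1.44 TPM (SD, n = 4 each). The rank of the paralogs of the 9 genes depended on the library. Of 15, 4 had 0 counts in every library (*Gata1*, *Gata2*, *Tbx1* and *Zbtb7c*) and 8 were tested. The median percentile of these 8 was 40.4, with 19.1, 57.9, 13.1 and 45.3 in replicates 1 to 4. *Zbtb7a* averaged 45.5 ± 12.7 TPM and *Gata4* 33.3 ± 48.9 TPM, and *Zbtb32* had 1 count in all (SD, n = 4 each). *Gata4* was read at 15.0, 117, 1.12 and 17.8 CPM. It was one of 5 paralogs, with *Gata5*, *Gata6*, *Tbx3* and *Bcl11a*, that were over 1 log2 unit higher in replicate 2 than 1 and in replicate 4 than 3, as were 19% of all genes tested; *Gata4*, *Gata5* and *Gata6* are known from the gut epithelium. The 4 beside *Gata4* were named after their values were seen.

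The lineage factors were compared between the same libraries. Within the second experiment the 8 detected factors were lower in replicate 2 than in replicate 1, with a median difference of -1.85 log2 CPM, and within the first experiment 7 of 8 were lower in replicate 4 than in replicate 3, with a median difference of -0.92 log2 CPM over the 8. Both differences were negative for 7 of 8 factors, all but *Zbtb7b*, and for 29.9% of all genes tested. By more than 1 log2 unit in both, it was 3 of 8 (*Zbtb16*, *Gata3* and *Runx3*) against 8.08% of all genes, and 0 of 8 were higher in both, against 35.2%. The medians of all genes tested were 0.13 and 0.08.

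*Tbx21* differed most between replicates 2 and 1, at -2.79 log2 CPM, followed by *Runx1* at -2.58 and *Zbtb16* at -2.08. Between replicates 4 and 3 it was *Runx3*, at -2.20, and then *Zbtb16* at -1.43. *Zbtb7b* was at -0.95 in the second experiment and at 1.27 in the first. Each difference is between 2 single libraries and has no test of its own.

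T cell markers were lower in the same libraries as the factors. Their median difference was -1.03 in the second experiment and -1.37 in the first, and that of epithelial markers was 3.43 and 5.62. Relative to the mean of the T cell markers (log2 CPM less the mean log2 CPM of the 7 genes), 1 of 8 factors was lower in both comparisons, *Runx3* at -0.70 and -0.76, instead of 7 of 8. On this scale *Tbx21* was -1.78 and 0.59, *Runx1* -1.57 and 0.46, *Zbtb16* -1.07 and 0.02, and *Zbtb7b* 0.06 and 2.71. The median SD of the 8 factors over the 4 libraries was 1.21 log2 CPM and 0.59 relative to T cell markers, smaller for 7 of 8 (all but *Zbtb7b*), whereas all genes tested had 1.02 and 1.30, with 24.7% of them smaller. The part of other cell types in these differences was not tested beyond these values.

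**Figure D4:**
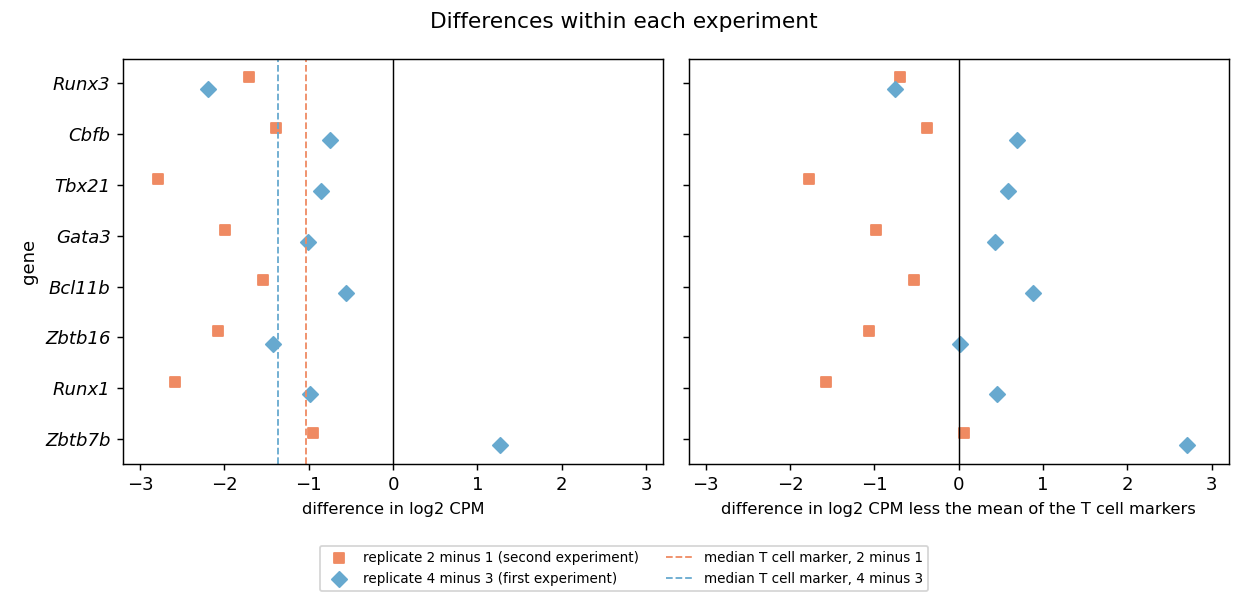
Differences between the 2 libraries of each experiment for the 8 detected factors, as log2 CPM (left) and as log2 CPM less the mean of the 7 T cell markers (right), with dashed lines at the median T cell marker. On the left, only the replicate 4 minus 3 point of *Zbtb7b* (1.27) lies above 0, and on the right both points lie below 0 for *Runx3* alone.

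Profiles over the 4 libraries were also compared by the root mean square distance between centred log2 CPM values. For the T cell markers this distance restates the SD relative to them on another scale and is not a separate observation. All 8 factors were nearer to the mean T cell marker profile than to the epithelial one. So were 79.4% of all genes tested, and this did not set the factors apart from most genes. *Bcl11b* (0.40), *Runx3* (0.41) and *Gata3* (0.43) lay closest to the T cell markers and *Zbtb7b* (0.96) and *Tbx21* (1.08) farthest, and *Tbx21* was 3.40 from the epithelial markers.

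Among the factors themselves, *Gata3* lay 0.23 from *Bcl11b*, 0.23 from *Runx1* and 0.24 from *Zbtb16*, the closest set, while *Tbx21* and *Cbfb*, at 1.35, were farthest apart. Over all genes tested, those nearest to each factor over the 4 libraries were *Selplg*, *Laptm5* and *Cables1* for *Zbtb16* (0.05 to 0.10), *Fam3a*, *Fcho1* and *1700056E22Rik* for *Tbx21* (0.08 to 0.14), and *Rgs2*, *Gm16364* and *Epb41* for *Gata3* (0.05 to 0.08). For *Zbtb7b* they were *Ncf4*, *4831440E17Rik* and *Mettl3* (0.06 to 0.09), for *Runx1* *AI987944*, *Pygl* and *Tmem131l* (0.09 to 0.11), and for *Runx3* *Nfkbil1*, *Il21r* and *Hmces* (0.08 to 0.14). For *Cbfb* they were *Ctsd*, *Elk4* and *Gbf1* (0.04 to 0.07) and for *Bcl11b* *Flt3l*, *Psmb8* and *Dym* (0.05 to 0.07). A profile of 4 libraries is a short one, so these distances are a description only. *Selplg*, at 321, 75.5, 656 and 259 CPM, kept the order of *Zbtb16* in all libraries. The median distance of *Zbtb16* to all genes tested was 1.44.

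The 2 experiments, as read from the titles, were compared as a measure of reproducibility, since condition and tissue were the same in both. With edgeR's quasi-likelihood test, 0 of the 8 factors passed an adjusted p of 0.05, and 0% of the 11689 genes did. At an unadjusted p under 0.05 it was 0 of 8 and 2.12% (248 genes), though *Tbx21* was below it with no filter, with at least 10 counts in all 4 libraries and without replicate 4, and *Tbx21* and *Runx1* without replicate 1. Among the 7 related gene lists only *Tcf7*, named here for its p, was below it. *Tbx21* had the largest difference, with 118 and 16.9 CPM in the second against 328 and 181 in the first experiment, a log2 fold change of -1.91 (SE 0.95, 95% interval -4.20 to 0.39, edgeR unadjusted p = 0.089, adjusted p = 1.0). Without replicate 1 it was -3.86 and without replicate 2 it was -1.10. Its groups did not overlap, and neither did those of *Bcl11b*, at 209 and 71.9 against 311 and 211 CPM, with a log2 fold change of -0.89 (SE 0.69). That makes 2 of 8 lower without overlap, against 14.4% of all genes, and 0 of 8 higher, against 14.7%. *Zbtb16* had -1.31 (SE 0.87), which was -2.65 without replicate 1 and -0.44 without replicate 3, and *Runx3* -1.24 (SE 0.93), while *Cbfb* was the only factor with a positive value, 0.20 (SE 0.68). Each of the 8 intervals includes 0 and is at least 3 log2 units wide, so differences of 2-fold were not resolvable between the experiments.

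**Figure D5:**
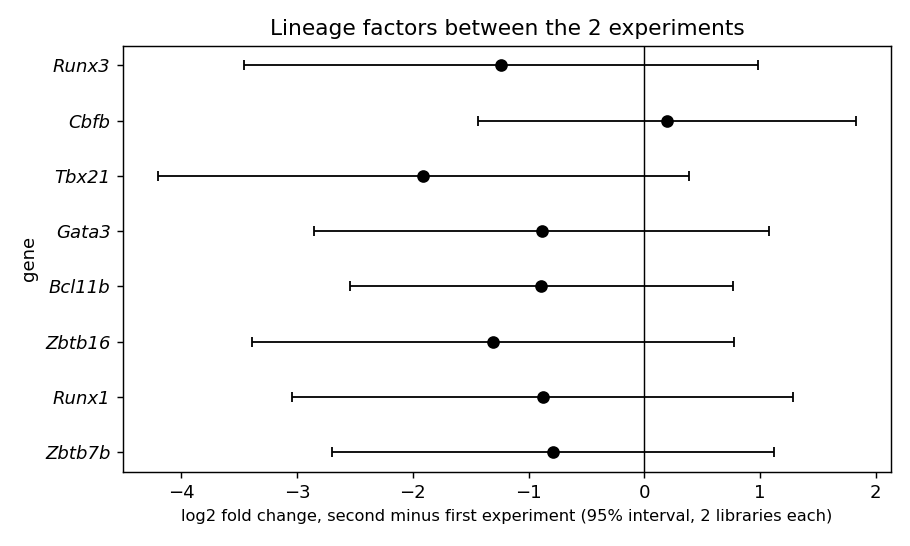
Log2 fold change of each detected factor from the first to the second experiment with edgeR's 95% interval, 2 libraries in each. *Tbx21* lies farthest from 0 at -1.91, and all intervals cross 0.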

How the data were processed

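RNA-seq of sorted SI-LP NKT cells from WT mice gave 4 libraries, 2 titled First and 2 titled Second, read here as 2 experiments. The authors deposited raw counts per gene, made from paired reads with featureCounts 1.6.4 on exons (primary alignments, RefSeq annotation, no strand option). The methods name HISAT2, GRCm39 and DESeq2, and the labels GRCm38.p6. Of 24984 genes matched, 99.7% overlap their GRCm38 position, so GRCm38 is used here. The table has 6 library columns, of which 2 match no sample label and were not used. The deposited gene lengths served to compute TPM.

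CPM values come from edgeR 4.0.16 (TMM; log2 values with a prior count of 2), and TPM ratios with 0.5 counts added. The filter of 10 counts in 2 libraries left 11689 genes, for which the experiments were compared by the quasi-likelihood test of edgeR, with p-values adjusted after Benjamini and Hochberg. Ratios within libraries were compared with exact two-sided sign-flip permutation tests. No 2 libraries held identical values (13659 to 15295 genes differed). Libraries may share a source, so p-values measure the spread between these samples. *Rn45s*, a ribosomal RNA precursor, took 7.36% to 28.1% of the counts.

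The 9 genes and the gene lists were chosen with earlier results of these data known. Named from each list are the top 2 by mean TPM and the lowest above 0, and for each factor the 3 genes with the closest profile. *Zfp683* has no row in the table used, and 1 further gene of the lists is not reported here. Alternatives were DESeq2 1.42.0, median-of-ratios factors, library size alone, other filters, prior counts and pseudocounts, CPM in place of TPM, TPM after removal of the 10 most abundant genes, and each replicate left out in turn. Tools were R 4.3.3, limma 3.58.1, Python 3.11.15, numpy 2.4.6, pandas 2.3.3 and matplotlib 3.10.9.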

Additional observations from a re-analysis of the deposited data

Results flagged for a closer look

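Each factor's CPM and TPM and each of the 6 log2 ratios, 22 sets of 4 libraries, were examined for a library far from the other 3 (a gap, as a share of the whole range, above Dixon's critical value at 95%). In 0 of 22 sets was there one, where chance would give about 1.1.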

How the results depend on the processing

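No paired analysis was possible because the 4 libraries form a single group, so that no 2 groups share replicate numbers. The count of lineage factors that passed the experiment test was 0 under every alternative run (DESeq2, both other scalings, both other filters, the other prior count and each replicate left out). Over all genes it was 0, except 60 with no filter on low counts, 41 with DESeq2, and 0 to 7 with one replicate left out (7 without replicate 3 and 6 without replicate 4); the cause was not tested. The log2 fold change of *Cbfb* ran from -0.62 to 0.72 with one replicate left out (-0.62 without replicate 1, -0.13 without replicate 4), and that of *Runx3* from -2.29 to 0.23 (0.23 without replicate 3). The values of the other 6 factors stayed negative but moved widely, with *Tbx21* between -3.86 and -1.10, *Zbtb16* between -2.65 and -0.44, *Runx1* between -2.65 and -0.10, *Gata3* between -2.17 and -0.21, *Bcl11b* between -1.82 and -0.32 and *Zbtb7b* between -1.32 and -0.02, the lowest each time without replicate 1. At an unadjusted p under 0.05 it was 0 to 2 of 8 factors (2 without replicate 1). With counts not divided by length, the log2 ratio of *Tbx21* to *Zbtb16* was -0.71 and that of *Gata3* to *Zbtb16* -0.92, 2 of 8 factors kept their place in the order of levels, and the median percentile of NKT1 genes was 85.1. By the median over libraries 5 of 8 kept their place, and 3 to 6 of 8 with one replicate left out, fewest without replicate 2. The 7 factors lower in replicates 2 and 4 became 1 per T cell marker level, an alternative chosen after seeing the data, as were the values for replicates 1 and 3 alone. The means of CPM, TPM and percentile moved by less than 1 SD in 152 of 152 cases. With one replicate left out this outcome was fixed in advance, because a mean of 4 libraries cannot move by their SD. Those cases therefore say nothing on stability: the mean of *Runx3* fell from 273 to 154 CPM without replicate 3. The signs of the means of the other ratios, the 8 factors nearer the T cell profile and the 7 with a smaller SD per T cell marker level did not change. The biological coefficient of variation between these libraries was 0.976. Each detected factor had 176 counts or more in every library, and what limits the experiment test was not tested.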
